A study of Homo sapiens with 2 samples.

Results

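Histone lysine methyltransferase and demethylase genes were examined for binding by IGF2BP3 in OE-19 cells. The members were all autosomal protein-coding genes of GENCODE release 44 whose symbol begins with KMT, KDM, SETD, NSD or EHMT followed by a digit, which gave 39 of 19111 genes. The rule used names only and no measured value. A peak belonged to a member when it shared at least 1 bp with an annotated exon of that gene, which gave 132 of 21142 peaks in replicate 1 and 121 of 20799 peaks in replicate 2.

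OE-19 is an established epithelial cell line whose source was an adenocarcinoma of the gastric cardia. Both libraries came from OE-19 cells with no stated treatment or genetic change, so there was 1 group of 2 replicates. LACE-seq joins UV crosslinking of RNA to protein, immunoprecipitation with an antibody against IGF2BP3, and linear amplification of cDNA ends. No input, IgG or IGF2BP3-depleted library was analysed here, and the abundance of each transcript was not measured in these files. A count of peaks therefore reflects binding, transcript abundance and transcript length together, and these cannot be told apart. The study's text calls its replicates biological.

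IGF2BP3 is an RNA-binding protein of the insulin-like growth factor 2 mRNA-binding family, whose members bind messenger RNA and are described as readers of N6-methyladenosine (m6A), a methyl mark on adenosine in RNA. Histone lysine methyltransferases, most of which carry a catalytic SET domain, place methyl groups on lysines of histone tails. Demethylases of the LSD1 and JmjC families remove them. The marks at H3K4 and H3K36 are associated with active transcription, and those at H3K9, H3K27 and H4K20 with repressed or compacted chromatin.

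The depth of the libraries is unknown. The read pileup at a summit is the number of overlapping reads there. Over all peaks its median was 22 and its lowest value 4 in both lists, and over the member exon peaks the median was 26 in replicate 1 and 20 in replicate 2. All 6 epithelial markers examined (KRT8, KRT18, KRT19, EPCAM, CDH1 and ERBB2) had overlapping peaks in the 2 lists, with 29 exon peaks in each list. Of 6 markers of other cell types (VIM, COL1A1, COL1A2, PTPRC, CD3E and PECAM1), 0 had a peak in replicate 1 and 1 had a peak in replicate 2.

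Sequences around the summits of the strongest repeated peaks are shown first, since each peak overlapped one of the other list. The NSD1 window lies inside a pseudogene on the other strand, so the transcript of its reads is uncertain. They are the pairs of overlapping peaks, 1 in each list, that had the highest fold enrichment when each pair was scored by its weaker replicate and each gene was taken once, followed by the peaks with the largest q-value score of KMT2D and KMT2C. Fold enrichment is as the authors' peak caller gave it, and was read as the pileup over the local background with 1 added to each. All are from hg38, read 5′ to 3′ on the strand of the gene around the replicate 1 summit. The replicate 2 summit lay 168 bp away for NSD2 and 332 bp for KDM3B. It lay 544 bp away for KMT2D exon 11 and at least 375 bp for KMT2C. For NSD2 the replicate 1 summit, at 1918177, lay just before the replicate 2 peak, which began at 1918179. Windows within or close to an annotated UTR were kept to 30 nt, and capitals mark GGAC, the core of the m6A motif. The strongest pair, in exon 2 of NSD3, is given by its values only.
NSD1 (chr5:177265868-177265968, + strand, exon of a non-coding transcript): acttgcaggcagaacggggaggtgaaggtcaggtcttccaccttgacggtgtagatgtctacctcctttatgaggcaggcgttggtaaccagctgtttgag
KDM3B (chr5:138435642-138435671, + strand, coding, last exon): cagtgaaagatgcggttggcaccctcaagg
SETD7 (chr4:139547135-139547235, − strand, intron beside exon 2): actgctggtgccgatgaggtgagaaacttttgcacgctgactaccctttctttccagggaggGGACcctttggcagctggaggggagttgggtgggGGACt
KMT2E (chr7:105063248-105063348, + strand, intron beside exon 5): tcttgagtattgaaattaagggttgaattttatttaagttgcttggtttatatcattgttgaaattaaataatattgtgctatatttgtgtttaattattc
SETD2 (chr3:47057071-47057171, − strand, coding, exon 15): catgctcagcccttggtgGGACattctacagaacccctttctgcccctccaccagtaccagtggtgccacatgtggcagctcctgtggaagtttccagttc
KMT2D (chr12:49060539-49060568, − strand, 5′UTR, exon 1): tttcctctccggttgcaaatggctgcctcg
NSD2 (chr4:1918162-1918191, + strand, coding, exon 5): aaattgagggcccagtgggaaatgggcatt
KMT2D (chr12:49051763-49051863, − strand, coding, exon 11): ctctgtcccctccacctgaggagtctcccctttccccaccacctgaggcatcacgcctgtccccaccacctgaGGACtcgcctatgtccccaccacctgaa
KMT2C (chr7:152163331-152163431, − strand, coding, exon 43): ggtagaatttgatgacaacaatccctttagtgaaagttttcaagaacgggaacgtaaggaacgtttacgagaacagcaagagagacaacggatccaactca

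The letters GGAC stood in 3 of these 9 windows, those of SETD7 (at 2 places), SETD2 and KMT2D exon 11. The KMT2D exon 11 window held the letters CCACCTGA 4 times in a row of near-repeats. These letters were chosen after the window was seen. Gene-strand windows around all exon-peak summits, 50 nt to each side, were searched for them. At least 1 copy stood in 0.324% of 18223 windows in replicate 1 and 0.361% of 18575 in replicate 2. In replicate 1 no other window held them as often. In replicate 2 no window held them more than 2 times, and the summit in this exon lay 544 bp from that of replicate 1.

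IGF2BP3 peaks lay over the exons of most members. In replicate 1, 29 of 39 genes had at least 1 exon peak, where 38.0% of all autosomal protein-coding genes had one. In replicate 2 it was 33 of 39, where the background was 39.9%. The 29 genes of replicate 1 all had a peak in replicate 2 as well, beside a background of 32.4%. A pair of overlapping peaks, 1 in each list, was present in 25 of 39 members, beside 28.6% of all genes, and these members held 86 pairs. With only the 5000 peaks of largest q in each list, 3 of 39 members (KMT2D, NSD3 and SETD6) had a pair, beside 8.94% of all genes, so the members' share was not above the background among the strongest peaks.

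Long transcripts can hold more peaks, and the members were long. The canonical transcript had a median length of 5.99 kb in the members and 2.90 kb in all genes. Members had 0.499 exon peaks per kb of canonical transcript in replicate 1 and 0.458 in replicate 2. For all genes the densities were 0.261 and 0.266. Per kb of all annotated exon bases, members had 0.266 and 0.244 peaks and all genes 0.170 and 0.173.

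The share of genes with a pair was also set beside genes in the same class of exon length. No member had less than 2 kb of annotated exon, a class in which 12.0% of all genes had a pair. Of members with 2 to 4 kb, 0 of 4 had a pair, beside 23.6% of all genes. Of those with 4 to 6 kb it was 2 of 6, beside 30.0%. The longer members stood above the genes of their class. With 6 to 8 kb, 5 of 6 members had a pair beside 37.5%, and with 8 kb and over 18 of 23 beside 41.7%. The last class has no upper limit and its members reach 53322 bp (KMT2C), so length is not matched within it.

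**Figure D1:**
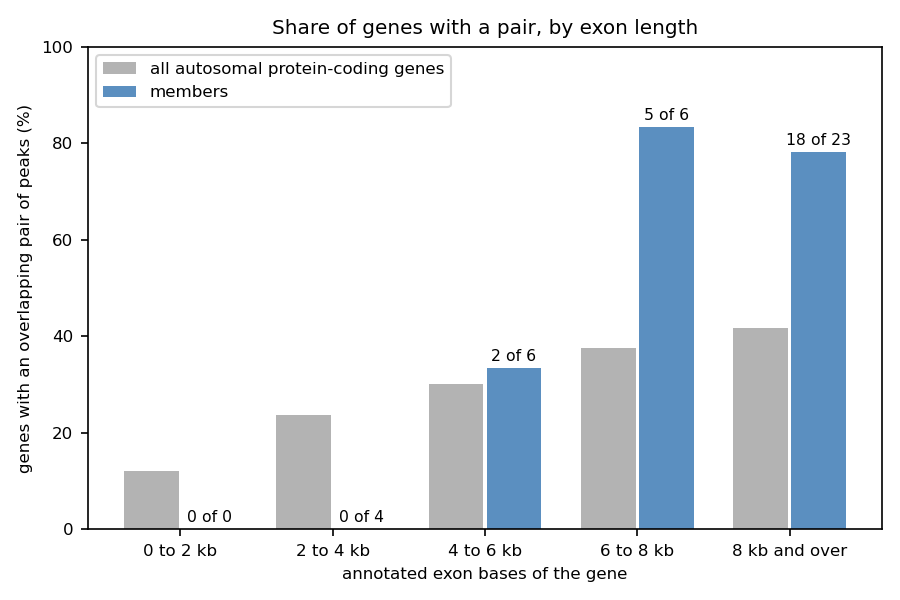
Share of genes with at least 1 pair of overlapping exon peaks (y axis, percent) by the annotated exon bases of the gene (x axis), for all autosomal protein-coding genes (grey) and for the members (blue), with the member counts printed over the blue bars. The members lay above the grey bars at 6 kb and over, close to them at 4 to 6 kb (2 of 6), and at 0 of 4 between 2 and 4 kb.

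The methyltransferases carried more of the peaks than the demethylases. Of 16 methyltransferase genes, 14 had a pair and together they had 64 pairs, with 94 exon peaks in replicate 1 and 79 in replicate 2. Of 16 demethylase genes, 7 had a pair and together they had 12 pairs, with 24 and 27 exon peaks. A pair was present in 28.6% of all genes, and in 41.7% of those with 8 kb and over of annotated exon. The methyltransferases had 143.7 kb of canonical transcript and the demethylases 90.0 kb, so these counts of genes are not matched for length. Per kb of canonical transcript, the methyltransferases had 0.654 and 0.550 exon peaks and the demethylases 0.267 and 0.300. The density of the demethylases was thus near that of all genes in both replicates. Without KMT2C and KMT2D, the methyltransferases still had 0.621 and 0.490 peaks per kb and 12 of 14 genes with a pair. The 7 members with another or no settled histone substrate had 0.457 and 0.489 peaks per kb, and 4 of them had a pair. The difference between the groups was not tested.

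**Figure D2:**
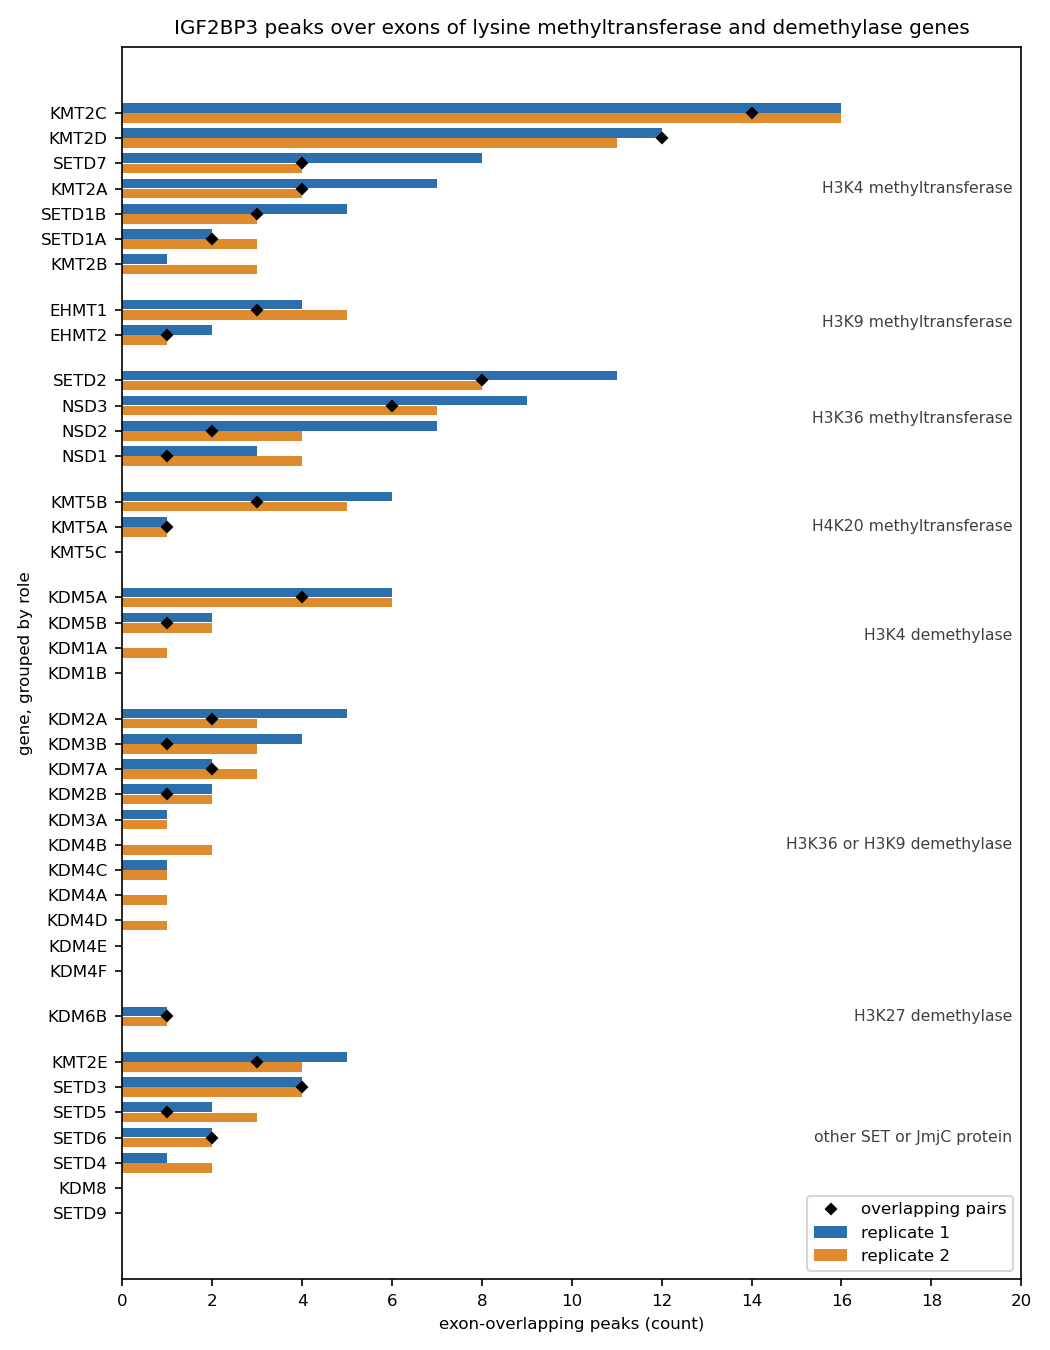
Exon-overlapping peaks (x axis, count) for each of the 39 members (y axis), grouped by role, in replicate 1 (blue bars) and replicate 2 (orange bars), with black diamonds at the number of overlapping pairs where it is above 0. KMT2C had 16 peaks in each replicate, KMT2D 12 and 11, and 6 genes had no bar in either list.

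The enzymes that methylate H3K4 held the largest number of pairs, 39 in 6 of 7 genes, where 28.6% of all genes had a pair. KMT2C and KMT2D encode the catalytic subunits of the complexes that monomethylate H3K4 at enhancers. KMT2C had 16 exon peaks in each replicate and 14 pairs, and only 5 of 19111 genes had more pairs. KMT2D had 12 peaks in replicate 1 and 11 in replicate 2, which formed 12 pairs because a wide peak of one list can meet more than 1 peak of the other, and 13 genes had more pairs. Both genes together gave 26 of the 86 member pairs.

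KMT2C spans chr7 on the minus strand with 59 canonical exons. Peaks followed its long coding exons in both lists. They covered 83.3% of the 1884-nt exon 36 in replicate 1 and 79.8% in replicate 2, and 73.6% and 85.1% of exon 43, which has 1710 nt. Exon 38 was covered over 50.6% and 38.9%, and exon 52 over 49.5% and 40.8%. The last exon of 2000 nt had no peak in replicate 1 and 1 peak at its start in replicate 2. The largest q of the gene was in exon 43, at chr7:152162569-152163926 in replicate 1, with a fold of 7.06 and a pileup of 58, where replicate 2 had a pair of neighbouring peaks with folds of 5.78 and 6.53. The first exon had a peak in both lists, with a pileup of 13 in replicate 1 and 26 in replicate 2, and it also overlapped the pseudogene FABP5P3 on the other strand.

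Parts of KMT2C have near-identical copies elsewhere in the genome. In the peak near exon 20, 57.6% of 31-mers in replicate 1 and 58.0% in replicate 2 occurred more than once in hg38, and in the replicate 1 peak near exon 24 it was 59.1%. In the first-exon pair it was 23.6% in replicate 1 and 19.6% in replicate 2, and the 31-mer at the summit occurred at 2 places in both. The origin of the reads in all these peaks is uncertain. The peaks over exons 36, 43 and 52 held 0% of such 31-mers.

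KMT2D also stood apart in signal. Median summit pileups were 104.5 and 115 reads, against 26 and 20 over all member peaks. Its local background was also high, with medians of 32.5 and 41.2 reads against 2.75 and 1.85. Only 14 of 7269 genes with an exon peak in replicate 1, and 9 of 7617 in replicate 2, had a higher median background. The fold enrichment of its peaks was accordingly low, with a median of 3.49 and 3.13 against 6.35 and 6.69 over all member peaks. The highest pileup was in exon 11, the source of the repeated sequence shown above, at chr12:49051104-49052555, with a pileup of 204 and a fold of 4.41 in replicate 1. Replicate 2 had a pileup of 210 and a fold of 4.28 over the same exon. These peaks covered 1321 and 1462 nt of the 1539-nt exon.

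All 8 KMT2D exons of at least 1 kb carried peaks in both lists. The 5′UTR exon 1 was the exception to the low folds, with 8.20 in replicate 1 and 8.23 in replicate 2, a pileup of 49 and 66, and a background of 5.10 and 7.14. Exon 32 was covered over 75.6% in replicate 1 and 90.9% in replicate 2. Exon 40, the longest internal exon with 2790 nt, was covered over 47.1% and 59.6%. In the last exon, which holds the 3′UTR, the covered share was 36.5% and 39.7%. A replicate 1 peak there overlapped DDN-AS1, and a peak of each list at this end of the gene overlapped another annotated protein-coding gene on the same strand, so the transcript of those reads is uncertain.

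KMT2A, which maintains expression of HOX genes, had 7 and 4 peaks and 4 pairs. The pairs lay in exon 1, in exon 3, in the 4249-nt exon 27 and in the 3′UTR. Folds in exon 1 were 6.94 and 9.97, and in exon 3, where another annotated protein-coding gene lies on the same strand, they were 4.87 and 9.83. Exon 27 had 3 peaks in replicate 1 and 1 in replicate 2. Its close paralog KMT2B had 1 peak in replicate 1 and 3 in replicate 2, none of which overlapped between the lists. SETD1A and SETD1B, which trimethylate H3K4 at promoters, had 2 and 3 pairs. SETD1B had 5 peaks in replicate 1 and 3 in replicate 2, all with the summit in coding sequence.

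SETD7 monomethylates H3K4 and also methylates other proteins. It had 4 pairs, from 8 peaks of replicate 1 and 4 of replicate 2, the largest difference among the members. The 5806-nt last exon, nearly all of it 3′UTR, held 4 peaks of replicate 1 with folds from 3.01 to 3.45 and pileups from 62 to 71. Replicate 2 had 3 peaks there with folds from 3.40 to 4.97 and pileups from 41 to 60. Peaks covered 37.5% and 34.5% of this exon. The remaining pair was at the intron beside exon 2, with folds of 9.73 and 9.55 and a pileup of 15 in both lists.

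**Figure D3:**
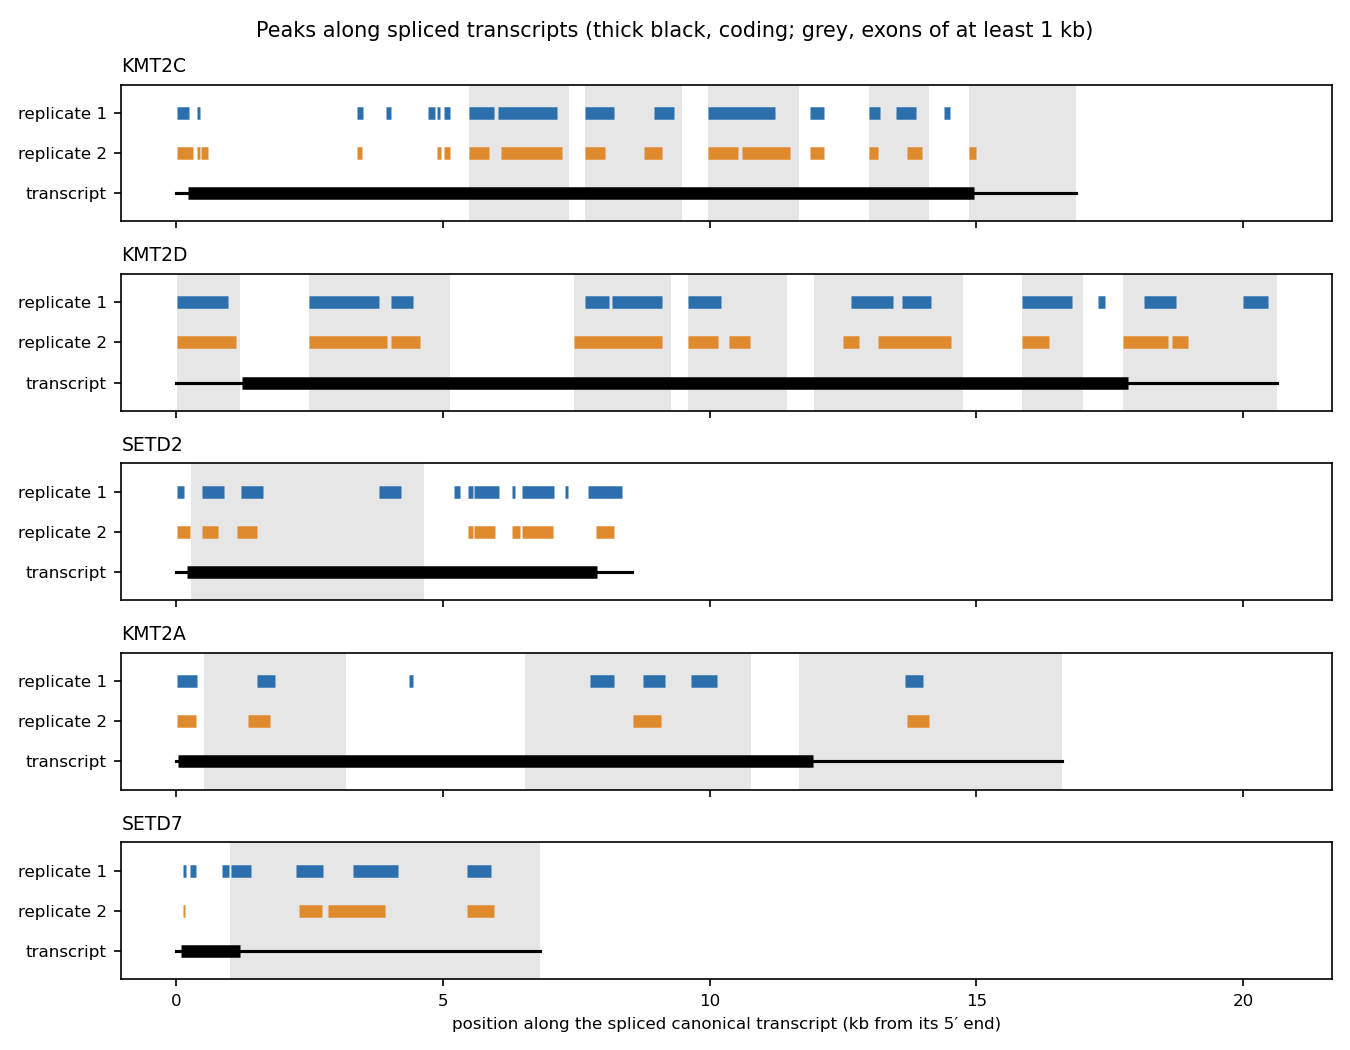
Exon-overlapping peaks of replicate 1 (blue) and replicate 2 (orange) along the spliced canonical transcripts of KMT2C, KMT2D, SETD2, KMT2A and SETD7 (x axis, kb from the 5′ end), with coding sequence as the thick black line and exons of at least 1 kb shaded grey. Only the part of a peak on canonical exons is drawn. KMT2C and KMT2D peaks recur over the shaded coding exons, and SETD7 peaks over the 3′UTR.

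All 4 genes that methylate H3K36 had a pair, beside 28.6% of all genes, with 17 pairs in all. SETD2, which trimethylates H3K36 over transcribed genes, had 11 and 8 peaks and 8 pairs, and 58 genes had more pairs. Every replicate 2 peak of SETD2 overlapped one of replicate 1. Its coding pair in exon 12 had folds of 11.4 and 8.30, and that in exon 15, shown above, 10.4 and 8.62. In the 4367-nt exon 3, replicate 1 had 3 peaks with pileups of 73, 50 and 50, and replicate 2 had 2 with pileups of 29 and 33. The first-exon pair, with folds of 6.19 and 11.2, also overlapped KIF9-AS1 on the other strand. The last-exon pair had folds of 9.69 and 7.45.

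NSD1, NSD2 and NSD3 dimethylate H3K36. NSD3 had 9 and 7 peaks and 6 pairs. Its exon 2 pair, at chr8:38347612-38348397 in replicate 1, was the strongest of all member pairs by its weaker replicate, with folds of 15.4 and 11.9, q-value scores (−log10) of 47.9 and 23.9 and pileups of 55 and 29. Its 5′UTR pair had a fold of 9.84 in replicate 1 and 15.3 in replicate 2, and overlapped an antisense lncRNA. Its 6179-nt last exon had 2 peaks in replicate 1 and none in replicate 2. A further NSD3 pair, with both summits in the 3′UTR of a transcript other than the canonical one, had folds of 7.97 and 8.43. Its pileups were 49 and 29. The pair near exon 4 had 35.4% and 33.7% of 31-mers with another copy in the genome. NSD2 had 7 and 4 peaks but 2 pairs, both in coding sequence, at exons 2 and 5. The NSD2 peak with the highest fold, 11.8 in replicate 1 beside exon 18, had no partner in replicate 2.

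NSD1 had 3 and 4 peaks and 1 pair, with folds of 10.4 and 14.1 and pileups of 22 and 33. The whole of both peaks, 505 and 512 bp, lay inside PRMT1P1, a processed pseudogene on the opposite strand, and 15.4% and 15.8% of their 31-mers occurred more than once. Peaks carry no strand, so whether these reads came from NSD1 is uncertain. The other 5 NSD1 peaks did not overlap between the lists.

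The remaining methyltransferases act on H3K9 and H4K20. EHMT1 and EHMT2, which mono- and dimethylate H3K9, had 3 pairs and 1 pair. The EHMT2 pair lay at the end of its coding sequence in the last exon, with folds of 6.27 and 9.49 and pileups of 31 and 52, and overlapped EHMT2-AS1. In the EHMT1 3′UTR the folds were 4.87 and 9.02. KMT5B, which di- and trimethylates H4K20, had 6 and 5 peaks and 3 pairs, of which the 3′UTR pair had pileups of 48 and 62. KMT5A, which monomethylates it, had 1 peak in each list, with the summit in an intron and the same start and end. KMT5C had none in either list.

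Among the demethylases, KDM5A had the most pairs. It removes methyl groups from H3K4 and had 6 peaks in each replicate and 4 pairs, in exons 23 and 27, near exon 21, and in the 3′UTR. Folds at exon 27 were 9.37 and 7.85. Its paralog KDM5B had 2 peaks in each list and 1 pair, in the 3′UTR, with folds of 6.82 and 6.51. A replicate 1 peak of KDM5B shared 18 bp with its exons and 190 bp with the pseudogene COX7CP2. KDM1A, also known as LSD1, had 1 peak, in replicate 2, with a pileup of 8, and KDM1B had none.

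Of 11 genes for demethylases of H3K36 or H3K9, 4 had a pair, beside 28.6% of all genes. KDM3B had 4 and 3 peaks and 1 pair, over the stop codon in its last exon at chr5:138435484-138436165 in replicate 1. The folds of 15.5 and 10.7 and pileups of 50 and 23 made it the strongest demethylase pair. Its summits lay 332 bp apart, so the peaks of the lists overlapped without sharing a summit. KDM2A had 5 and 3 peaks and 2 pairs, both at the end of the coding sequence and the start of the 3′UTR. KDM2B had 2 in each and 1 pair, in the last exon, where RNF34 lies on the other strand. KDM7A had 2 and 3 peaks and 2 pairs, and its intronic pair beside exon 16 had folds of 6.16 and 12.9.

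The KDM4 family, which acts on H3K9 and H3K36, had few peaks. KDM4C had 1 peak in each list at different ends of the gene. KDM4A, KDM4B and KDM4D had 1, 2 and 1 peaks in replicate 2 only, with pileups from 8 to 14, and that of KDM4D also overlapped CWC15 on the other strand. KDM4E and KDM4F had none. KDM3A had 1 peak in each list without overlap, in the 3′UTR in replicate 1 and in the 5′UTR in replicate 2. KDM6B, an H3K27 demethylase, had 1 peak in each list, a pair over exon 7 with folds of 4.70 and 4.31.

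Other SET and JmjC proteins included SETD3, the actin histidine methyltransferase, with 4 peaks in each list and 4 pairs. Its canonical transcript of 2856 nt was the shortest among the members with 4 or more pairs. The exon 6 pair had folds of 11.4 and 6.94, and 2 further peaks of each list lay in the last exon, around the end of the coding sequence and in the 3′UTR. KMT2E, whose SET domain has no settled histone activity, had 5 and 4 peaks and 3 pairs, among them a 5′UTR pair with folds of 7.29 and 10.5 that also overlapped KMT2E-AS1, and a pair over the 3195-nt last exon with pileups of 88 and 35. SETD5 had 2 and 3 peaks and 1 pair. SETD4 had 1 and 2 peaks with no pair. SETD6, which methylates the NF-κB subunit RELA, had 2 peaks in each list, and all 4 also overlapped exons of CNOT1 on the opposite strand. KDM8 and SETD9 had none in either list.

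Coding sequence held the summit of about 1 in 2 member peaks. It was 66 of 132 in replicate 1 (95% Wilson interval 41.6% to 58.4%) and 59 of 121, or 48.8%, in replicate 2 (40.0% to 57.6%). Over the exon peaks of all genes it was 34.3% and 34.2%. Without KMT2C and KMT2D the member share was 45.2% and 42.6%, with intervals of 35.97% to 54.8% and 33.0% to 52.7%, the second of which includes the share of all genes. The 3′UTR held 19.7% and 18.2% of member summits, against 26.2% and 20.8% over all genes. Introns held 18.2% and 15.7%, against 24.9% and 22.5%, in peaks that overlap an exon by at least 1 bp. The 5′UTR held 4.55% and 9.92% of member summits and 7.83% and 13.6% of those of all genes, higher in replicate 2 in both sets. Intervals cover counting error only, and peaks of 1 gene are not independent.

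Members have more coding sequence than the average gene, so the summits were also counted per kb of each region. Coding sequence made up 36.1% of the members' annotated exon bases and 32.6% of those of all genes. Members had 0.368 summits per kb of coding sequence in replicate 1 and 0.329 in replicate 2, against 0.178 and 0.181 in all genes. In the 3′UTR the densities were 0.166 and 0.140 against 0.115 and 0.0931. In the 5′UTR they were 0.253 and 0.505 against 0.159 and 0.283. The member density was thus higher in coding sequence and in both UTR classes, in each replicate, and the differences were not tested. The member values rest on few summits in the UTRs, 26 and 22 in the 3′UTR and 6 and 12 in the 5′UTR.

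**Figure D4:**
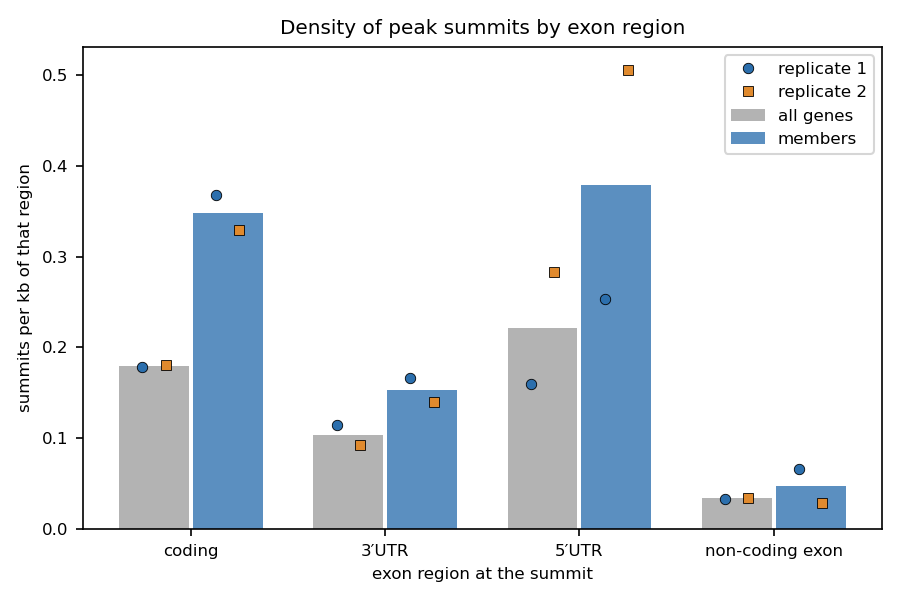
Peak summits per kb of region (y axis) in coding sequence, 3′UTR, 5′UTR and exons of non-coding transcripts (x axis), for all autosomal protein-coding genes (grey bars) and the members (blue bars). Bars are means of the 2 replicates and the points give each replicate. The member bars are higher in every region, although in non-coding exons the replicate 2 member point lies below that of all genes, and the replicates lie farthest apart in the 5′UTR, at 0.253 and 0.505 for the members.

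Counted as peaks, long exons held a smaller share than their share of bases. Each peak counted once, on the canonical exon it overlapped most, whatever its width, and covered bases were not compared. The members' canonical transcripts have 54 exons of at least 1 kb among 810, with 52.2% of the bases. They held 43.8% of the peaks on canonical exons in replicate 1 and 46.2% in replicate 2. Last exons, with 37.9% of the bases, held 26.6% and 23.9%. Of the 22 long exons that were not last, 16 had a peak in both lists and 1 in neither, the 2183-nt exon 12 of KDM6B. Of 32 long last exons, 15 had a peak in both lists and 10 in neither.

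The catalytic site of the SET domain was compared with the peaks. The motif asparagine, histidine, any 3 residues, proline, asparagine was found in the translated coding sequence of 15 members. Its codons lay under a peak in 1 of them in replicate 1, KMT2B, and in 0 in replicate 2. Of all runs of 7 codons in the coding sequences of these 15 members, 23.4% lay under a peak in replicate 1 and 21.1% in replicate 2, and whether the motif differs from them was not tested. An annotated stop codon lay under 14.4% of member peaks in replicate 1 and 9.92% in replicate 2, against 18.7% and 16.9% over all genes.

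The letters GGAC stood within 50 nt of the summit, read on the gene strand, in 26.5% of member peaks in replicate 1 (interval 19.7 to 34.6) and 24.8% in replicate 2 (17.9 to 33.2). Over all genes the shares were 29.7% and 32.6%. The longer TGGAC, which contains GGAC, stood in 7.58% and 9.92% of member windows against 10.1% and 10.0%, and the degenerate m6A motif DRACH in 78.0% and 75.2% against 80.9% and 76.2%. A match of letters is not a modified site.

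With all peaks kept, repeatability of the member peaks was near that of all genes. Of member peaks, 62.1% in replicate 1 and 66.9% in replicate 2 overlapped a peak of the other list, against 62.4% and 61.5% over the exon peaks of all genes. Without KMT2C and KMT2D, the member shares were 56.7% and 60.6%. Among the 5000 peaks of largest q in each list, the shares over all members were lower, 36.4% of 22 peaks and 44.4% of 18. Over all genes they were 55.4% and 53.3% at this setting. In 39 of the 86 pairs the summits lay within 50 bp of each other, and the median distance was 60.5 bp. Across the 86 pairs the Spearman correlation between replicates was 0.676 for the fold and 0.789 for the pileup, and without KMT2C and KMT2D it was 0.459 and 0.625 over 60 pairs. These values describe sites that share transcripts and libraries. The median fold of member peaks was 6.35 and 6.69, against 6.85 and 7.13 over all genes.

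The lists differed by 3 or more peaks in 4 members, each with more in replicate 1. These were SETD7 with 8 and 4, SETD2 with 11 and 8, KMT2A with 7 and 4, and NSD2 with 7 and 4. In the other direction, 4 members had a peak in replicate 2 only (KDM1A, KDM4A, KDM4B and KDM4D), and no member had one in replicate 1 only. The members with no exon peak in either list were KDM1B, KDM4E, KDM4F, KDM8, KMT5C and SETD9.

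Other genes of histone lysine methylation outside the naming rule, such as complex subunits and the remaining SET enzymes, were examined as a list of 35. A pair was present in 20 of 35 of them, 57.1%, beside the 28.6% of all genes, with 71 exon peaks in replicate 1 and 66 in replicate 2.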

How the data were processed

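IGF2BP3 LACE-seq of OE-19 cells was analysed from 2 samples, labelled replicates 1 and 2 of 1 group, which both entered every result. According to the study's methods, reads left after removal of pre-rRNA were aligned to hg38 with Bowtie and peaks were called with Piranha, whereas the submitters' processing notes name fastp, HISAT2 and MACS2. The deposited files have the 10 columns of the narrowPeak layout, with peaks called per replicate and no strand. The authors deposited the fold enrichment, a ratio to the local background, and gave each p-value and q-value as −log10. Library depth is unknown. The fold was taken as the pileup over the local background with 1 added to each. The whole pileup that gives both deposited values under a Poisson distribution, within 0.001, was found for all 21142 and 20799 peaks. It was also found for 500 of 500 simulated peaks, which were made with the same formula, so this checks the computation only.

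Peaks were placed on GENCODE 44 exons, and the summit was classed as coding, else 3′UTR, else 5′UTR, else non-coding exon, else intron. The canonical transcript was that of the Ensembl tag. Overlap was counted from 1 bp. The SET motif was sought in translated GENCODE coding sequences, since no RefSeq protein table was used here. Copies of 31-mers were counted in both strands of hg38. Genes given in full were the 8 with the most pairs, pairs shown with sequence were the 8 with the highest folds, and genes whose lists differed by 3 or more peaks were named. The members and lists were chosen with earlier results of these data known. All results are descriptions without a test, since 1 group has 2 replicates and peaks of a gene are not independent. Alternatives changed the overlap, peak, region, window and transcript rules. Leaving out KMT2C and KMT2D was chosen after seeing the data. Python 3.11.15, pandas 2.3.3, scipy 1.17.1 and pysam 0.24.0 were used.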

Additional observations from a re-analysis of the deposited data

How the results depend on the processing

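Of 63 values recomputed under 10 alternative settings, 36 moved by less than the spread between the replicates (for counts, stayed within 1.5 times the main count). For shares and folds this measure is easier to meet where the replicates differ more. The share of peaks covering a stop codon met it under all 7 of its settings, with 14.4% and 9.92% in the replicates (SD 3.17). The share of summits in coding sequence, with an SD of 0.877, met it under 0 of 8. No paired analysis was possible because there is 1 group. Values from 1 replicate alone are not counted here, since 1 replicate differs from the mean of 2 by less than their SD by construction, and the count of genes with a pair needs both. Means over the replicates follow, and the causes of the changes were not tested. With only the 5000 peaks of largest q in each list, 3 genes (7.69%) had a pair, beside 8.94% of all genes. This setting left 20 exon peaks per replicate, with a median fold of 7.91. The overlap was 40.4%, where all genes had 55.4% in replicate 1 and 53.3% in replicate 2. Summits lay in the 3′UTR at 22.5% and in coding sequence at 56.3% (68.2% in replicate 1 and 44.4% in replicate 2). GGAC stood in 10.6%, from 1 of 22 windows in replicate 1 and 3 of 18 in replicate 2. All genes had GGAC in 30.4% in replicate 1 and 34.3% in replicate 2. With at least 0.5 of a peak in exons, the overlap was 70.4%, coding 57.8%, 3′UTR 24.1% and fold 6.18. With the summit in an exon they were 69.3%, 61.3%, 23.5% and 6.17, and these settings drop intronic summits by construction. The overlap was 50.7% when at least 0.5 of each peak had to be shared and 30.9% with summits within 50 bp. Genes with a pair then numbered 23 and 17, where the main count was 25. The coding share was 51.0% with canonical transcripts and 50.8% with summit 31-mers that occur once. Midpoints gave 44.4% and GGAC in 24.4%. Leaving out peaks over other genes gave 53.8% coding and 17.6% 3′UTR, and 21 genes with a pair. Without KMT2C and KMT2D the overlap was 58.7%, coding 43.9%, 3′UTR 22.2% and fold 6.82. Library depth is unknown, and what it limits was not tested.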
